A study of Homo sapiens with 4 samples.

Results

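The regions described here are clustered distal regions of open chromatin that HL-60 cells gained after treatment with all-trans retinoic acid (ATRA). They were chosen on the peak calls of the same 4 ATAC-seq lists that are described below, so their presence, spacing and scores are a description and carry no test. The peaks of the 4 lists were merged into 78063 regions. A region was gained when it held a peak of both ATRA lists and none of either control list, which was the case for 6976 regions (8.94% of all merged regions). A distal region had its centre outside the promoters of protein-coding genes, here 1 kb upstream to 100 bp downstream of a transcription start site (TSS). There were 6435 gained distal regions, 9.55% of the 67386 distal regions. Neighbours whose edges lay at most 20 kb apart were joined into chains, and the 1080 regions in chains of 2 or more are the clustered regions. They formed 506 chains, and the other 5355 gained distal regions were isolated.

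HL-60 is an established human promyelocytic leukemia line. ATRA-treated cells were grown with 1 µM ATRA over 4 days, and control cells were given the ethanol vehicle instead, in both cases with fresh medium and additions at day 2. Each group had 2 replicates of the one line, which the study calls biological, without saying how the cultures were kept apart. ATAC-seq maps open chromatin with the Tn5 transposase, which inserts adapters where DNA is accessible. The lists held 42081 to 63541 peaks, ATRA replicate 2 being the longest and having the widest peaks (median 416 bp against 291 to 328 bp in the others). The depth of the libraries is unknown because the lists carry no read counts. Of 10 markers of promyelocytic and granulocytic cells, 5 to 7 had a promoter peak in each library, although ELANE and AZU1 had none in any. Over all protein-coding genes the share with one was 49.3% and 49.8% in the ATRA replicates and 47.4% and 44.1% in the control replicates. The marker count is near that share and does not identify the cells. A list of 10 mature neutrophil markers was not higher after treatment. Its count was 3 for ATRA replicate 1, 4 for ATRA replicate 2, 5 for control replicate 1 and 4 for control replicate 2. FCGR3B, FPR1, CYBB, MMP25 and S100A12 of that list lacked a promoter peak in every library. Of 10 markers of monocytes and macrophages, 1 and 3 had one in the ATRA replicates and 0 and 1 in the control replicates, with none at CD14, and their part in the results was not tested. Of 10 erythroid and megakaryocytic markers 1 had a promoter peak in each library, and of 10 markers of T and NK lymphocytes 1 to 2 did, with none at CD3D, CD3E and CD3G.

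Retinoic acid enters the nucleus and binds retinoic acid receptors, which sit with retinoid X receptors on repeated hexamers in DNA and switch from repression to activation. In HL-60 cells this drives maturation toward neutrophils, cells that migrate to bacterial peptides, engulf particles and release oxidants and granule proteins. Distal open regions are often enhancers, stretches bound by transcription factors that act on promoters over a distance, and several enhancers of 1 gene often lie close together. Factors such as PU.1, CEBP, RUNX and AP-1 proteins occupy many myeloid enhancers, GATA2 acts in progenitors, and CTCF binds at boundaries and loop anchors.

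The consensus of the retinoid receptors, a hexamer repeated in the same direction with 5 bases between the copies (DR5), was found in the central 200 bp of 6 clustered regions in 5 chains. The matches are shown because they are the letters that the receptors are known to read. Each is printed from GRCh37, the hg19 assembly, in the direction in which the repeat runs forward, with the repeat in capitals and 6 bases on either side. The sixth match, near KAT6A, is not printed.
DHRS3, chr1:12655989-12656017, minus strand: gctccgGGTTCAGCCACAGGTCAgcggcg
POR, chr7:75601331-75601359, plus strand: ggtggaAGGTCAGGCTGAGGTCAggccgt
HIC1, chr17:1987074-1987102, plus strand: tgactgAGGTCAAAAGAGGGTCAgagaag
HIC1, chr17:1991197-1991225, minus strand: ggtcagAGGTCATAGTGGGGTCAggtggc
RGS9, chr17:63127191-63127219, minus strand: cctcatGGGTCAGCCCAAGTTCAacaata
The match near POR, the reductase that supplies electrons to cytochrome P450 enzymes, carried AGGTCA in both copies. Both matches near HIC1 paired AGGTCA with GGGTCA. Of all 67386 distal regions, 0.108% held a DR5 match in a window of the same length, compared with 0.556% of clustered and 0.373% of isolated gained regions.

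The wider windows show where these matches lay. The region near POR was in an intron, 4256 bp from the TSS, and was among the strongest clustered regions, with a score of 297 in ATRA replicate 1 and 462 in ATRA replicate 2 (percentiles 88.4 and 95.0 of those lists). The 2 regions near HIC1, a gene for a transcriptional repressor, lay in introns of the neighbouring gene SMG6, 27485 and 31516 bp downstream of the HIC1 TSS, and formed 1 chain. Their percentiles were 76.9 and 73.2 for the first and 71.1 and 75.0 for the second, so both regions stood above the middle of both lists. The windows of 200 bp are given on the plus strand, with the DR5 in capitals.
POR, chr7:75601319-75601518: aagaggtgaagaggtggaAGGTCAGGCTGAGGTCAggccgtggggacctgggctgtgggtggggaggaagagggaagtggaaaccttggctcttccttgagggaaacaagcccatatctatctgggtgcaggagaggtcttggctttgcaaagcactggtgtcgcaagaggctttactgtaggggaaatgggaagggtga
HIC1 first region, chr17:1986989-1987188: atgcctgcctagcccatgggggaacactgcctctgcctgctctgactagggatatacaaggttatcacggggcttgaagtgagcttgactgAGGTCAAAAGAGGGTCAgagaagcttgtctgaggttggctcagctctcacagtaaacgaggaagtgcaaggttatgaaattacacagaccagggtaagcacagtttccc
HIC1 second region, chr17:1991020-1991219: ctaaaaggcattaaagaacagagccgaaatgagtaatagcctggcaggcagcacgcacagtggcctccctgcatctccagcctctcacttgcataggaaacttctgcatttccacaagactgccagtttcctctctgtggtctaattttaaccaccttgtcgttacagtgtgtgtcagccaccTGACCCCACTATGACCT
The DHRS3 region (chr1:12655737-12656284) lay over an exon, 310 bp downstream of one of the gene's start sites, and therefore just past the promoter limit. DHRS3 encodes a reductase that turns retinaldehyde back into retinol. Its scores were 142 and 131, and the other member of its chain, 8119 bp upstream of that gene's nearest start site, scored 188 and 304. The RGS9 region, in an intron 6208 bp from the TSS, scored 135 and 158. Unlike these, the KAT6A region was weak, at percentiles 21.3 in ATRA replicate 1 and 11.9 in ATRA replicate 2.

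Most chains were pairs. There were 446 chains of 2 regions, 53 of 3, 6 of 4 and 1 of 5. The gaps within chains had a median of 9190 bp (quartiles 5423 to 14319 bp, range 4 to 20000 bp), and 39 of 574 gaps (6.79%) were at most 1000 bp. The chains spanned a median of 10990 bp and at most 47169 bp. At the limit itself, the longest gap kept was 20000 bp, near DUSP5, between regions with mean percentiles of 38.5 and 52.6, and the shortest gap left out was 20018 bp, near ODF1, between regions at 80.6 and 35.0.

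**Figure D1:**
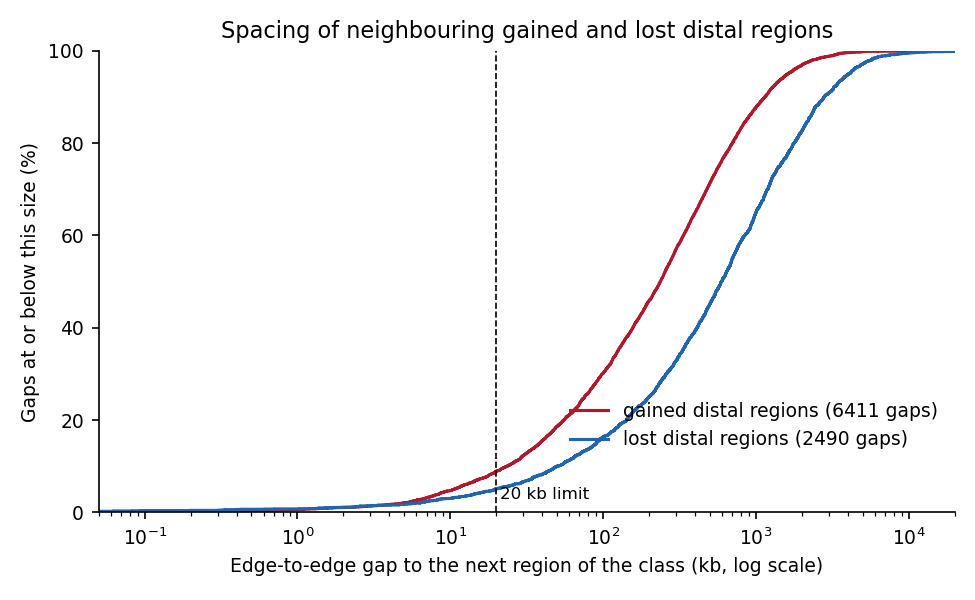
Cumulative share of edge-to-edge gaps (percent, y axis) against gap length (kb, log scale, x axis) for neighbouring gained distal regions (red, 6411 gaps) and lost distal regions (blue, 2490 gaps). The dashed line is the 20 kb limit, and both curves cross it smoothly, the red one higher.

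Of the gained distal regions, 16.8% lay in chains. Lost distal regions, with a peak in both control lists and none in either ATRA list, numbered 2514 (3.73% of distal regions), and 245 of them (9.75%) lay in 117 chains of at most 3. When the gained set was limited to its 2514 regions of highest mean percentile, as many as were lost, 223 (8.87%) lay in chains, so the order of gained and lost turned. Number and strength both changed in this set and cannot be told apart. Distal regions with a peak in all 4 lists, of which there were 16710, had 35.5% in chains by the same rule.

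The clustered regions were mostly modest peaks. Their median percentile was 35.0 in the list of ATRA replicate 1 (quartiles 19.2 to 54.2) and 44.8 in that of ATRA replicate 2 (26.4 to 63.9), compared with 59.7 and 74.7 for distal regions of all 4 lists. In both lists at once, 514 of the 1080 fell below the middle of the list, and 3 reached the top 10%. Isolated gained regions had medians of 31.9 and 44.2. Across the clustered regions the percentiles of the replicates had Pearson's r of 0.44 and Spearman's rho of 0.42 (1080 regions, which share their libraries and are not independent). Neighbours in a chain differed in mean percentile by a median of 18.2, as did consecutive isolated regions (18.2). When only the peaks above the middle of each list by score were used, 311 regions in 149 chains were found, and they covered 75 of the 1080 clustered regions. The control lists were cut in the same way, so a region with a weaker control peak could count as gained there.

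**Figure D2:**
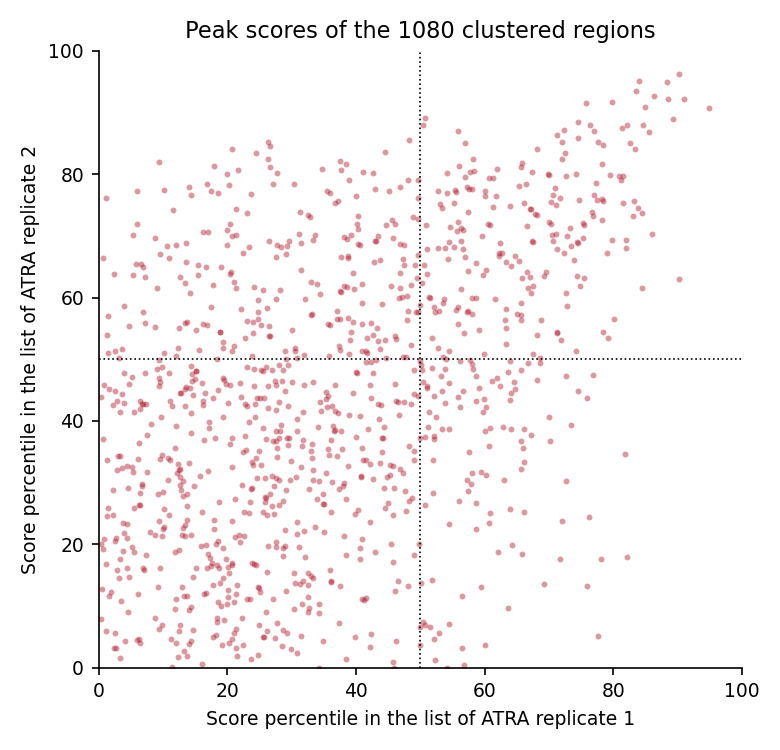
Score percentile of each of the 1080 clustered regions in the list of ATRA replicate 1 (x axis, percent) and of ATRA replicate 2 (y axis, percent), 1 point per region, with dotted lines at the middle of each list. Points spread over the whole of the lower left square, which holds 514 regions, and few reach the upper right corner.

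The strongest members stood out from this. A region in an intron of RAB31, a small GTPase of vesicle traffic, scored 328 and 513 (percentiles 90.3 and 96.2), and a second member of that chain scored 243 and 413. A region 2094 bp from the TSS of G0S2, an inhibitor of triglyceride lipase, scored 440 and 352 (percentiles 94.9 and 90.8). A region in an intron of LITAF scored 341 and 378, and one in an intron of ALDH1A2, 3232 bp upstream of a TSS, scored 256 and 354. ALDH1A2 makes retinoic acid from retinaldehyde. These regions are a description, taken from those with the highest mean percentiles, and not all of those are named above. Regions with LIF (percentiles 88.5 and 92.1), BEAN1 (84.1 and 95.1), AFF3 (86.4 and 92.6) and LDB2 (89.3 and 88.9) as nearest gene ranked above the ALDH1A2 region (85.0 and 90.9). The distances to the TSS of these genes were 50095, 7571, 178428 and 194582 bp, in that order.

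Clustered regions lay in introns more often than between genes. Of the 1080, 550 (50.9%) were intronic, 477 (44.2%) intergenic and 53 (4.91%) over exons, whereas isolated gained regions were 44.4% intronic and 51.6% intergenic. Their median distance to the nearest protein-coding TSS was 21763 bp, compared with 32255 bp for isolated regions and 33373 bp for all distal regions. GC content had a median of 46.5% in the clustered, 45.0% in the isolated and 48.0% in the all-list regions. Chromosome 19, with 24.3 protein-coding genes per Mb, held 102 clustered regions in 45 chains, or 17.3 per 10 Mb, and 35.3% of its gained distal regions were clustered. Leaving it out gave 978 clustered regions.

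Most chains spanned no region that was called in control cells, though their members hold no control peak by the rule. No share for other stretches of like length was computed. The span of 346 of the 506 chains (68.4%) held no region with a control peak. A region of all 4 lists lay within 72 spans (14.2%), a region with peaks in both ATRA lists and 1 control list within 42 (8.30%), and a lost region within 18 (3.56%). The nearest control peak was a median of 9471 bp from a clustered region and 13180 bp from an isolated one, and 98 clustered regions (9.07%) had one within 1 kb. The regions of 449 chains (88.7%) shared 1 nearest gene, and 330 chains (65.2%) overlapped a protein-coding gene.

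The chain with the most regions ran over LILRA5 and LILRA4, immunoglobulin-like receptors of leukocytes, at chr19:54808389-54855557. Its 5 regions scored 83.5, 106, 57.2, 63.1 and 66.6 in ATRA replicate 1 and 92.6, 92.2, 81.5, 125 and 61.8 in ATRA replicate 2. The second region passed the middle of the list of ATRA replicate 1 and the fourth that of ATRA replicate 2, and the others were below the middle of both lists. The span also held 1 region of all 4 lists and further regions with a control peak, and none of its 5 regions stayed in a chain when a control peak between regions broke it. The receptor genes of this locus are near-identical in places, and how reads that match several copies were placed is not stated.

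The chain at SYK (chr9:93532611-93571570) had 4 regions, of which 3 lay upstream of the nearest TSS, at 31246, 19682 and 5542 bp, and 1 in an intron 7114 bp downstream. SYK is the tyrosine kinase that signals from Fc receptors and integrins. The intronic region was the strongest, at 224 in both replicates (percentiles 81.5 and 79.7), and the upstream ones scored 72.5 to 123 and 89.2 to 151. Both of the regions farther upstream held a PU.1 match. With an equal number of peaks per list all 4 were still clustered. None of them was with gaps of at most 10 kb, or with only the peaks above the middle of each list by score. The span also held regions with a control peak, and 2 of the 4 stayed clustered where a control peak broke a chain.

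Around FFAR2 (chr19:35927287-35960031), the receptor for short-chain fatty acids on neutrophils, 4 intergenic regions lay on both sides of the gene, 5957 to 19223 bp from its TSS. They scored 117, 86.1, 64.1 and 111 in ATRA replicate 1 and 59.1, 144, 88.9 and 136 in ATRA replicate 2. No region passed the middle of both lists except the last, at percentiles 53.6 and 59.1. At chr1:209822236-209847062 the chain from LAMB3, a laminin chain gene, toward G0S2 ran from scores of 61.5 and 70.1 in an intron of LAMB3 to 440 and 352 in the region beside G0S2. The 2 regions between them scored 128 and 181, and 228 and 166. This was the chain of the 10 largest with the highest mean percentile (63.0).

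The strongest region of 4 of the 5 largest chains is printed on the plus strand, so that the matches named here can be seen. Capitals mark consensus matches, which are the GATA and RUNX letters at G0S2, RUNX and CEBP at PDE6H, and GATA and PU.1 at FFAR2, while the SYK window held none of the 10 consensus sequences searched.
PDE6H, chr12:15134033-15134232: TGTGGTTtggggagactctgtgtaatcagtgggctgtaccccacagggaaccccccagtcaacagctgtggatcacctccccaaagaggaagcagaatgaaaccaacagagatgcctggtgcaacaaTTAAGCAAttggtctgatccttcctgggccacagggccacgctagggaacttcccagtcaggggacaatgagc
G0S2, chr1:209846563-209846762: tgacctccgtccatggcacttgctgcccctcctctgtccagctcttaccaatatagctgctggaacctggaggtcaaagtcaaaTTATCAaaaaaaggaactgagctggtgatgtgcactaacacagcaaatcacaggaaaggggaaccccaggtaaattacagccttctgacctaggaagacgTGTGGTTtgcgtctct
FFAR2, chr19:35959740-35959939: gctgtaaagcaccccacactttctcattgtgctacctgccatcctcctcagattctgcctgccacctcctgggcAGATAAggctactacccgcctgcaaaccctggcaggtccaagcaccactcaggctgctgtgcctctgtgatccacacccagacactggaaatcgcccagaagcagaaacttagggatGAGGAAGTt
SYK, chr9:93571223-93571422: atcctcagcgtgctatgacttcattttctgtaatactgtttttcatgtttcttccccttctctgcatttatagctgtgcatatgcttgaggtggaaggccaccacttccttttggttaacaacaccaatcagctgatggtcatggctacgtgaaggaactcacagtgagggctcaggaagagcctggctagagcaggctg

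Among the other large chains, 4 regions at PDE6H (a photoreceptor phosphodiesterase subunit) also lay within 50 kb of ARHGDIB, a regulator of small GTPases in blood cells. They were weak, with percentiles of 2.86 to 28.1 in ATRA replicate 1 and 19.6 to 51.8 in ATRA replicate 2, and none was clustered with equal numbers of peaks. A chain of 4 lay between SIRPG and SIRPA, genes of receptors for CD47, at least 84108 bp from either start site, and its last region scored 184 and 181. The chain at SLC9A8, a sodium and proton exchanger, ended with a region of 71.0% GC that scored 251 and 144. The centre of that region lay 137 bp past a start site. With a width of 976 bp the region covered the start site, and it is distal by its centre alone. The shortest of these 10 chains was at ENPP2, the enzyme autotaxin, where 3 intronic regions spanned 1719 bp and scored 77.3 to 110 in ATRA replicate 1 and 69.2 to 194 in ATRA replicate 2. Chains of 3 also lay in MICOS10 and FGD4, the latter an exchange factor for Cdc42.

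**Figure D3:**
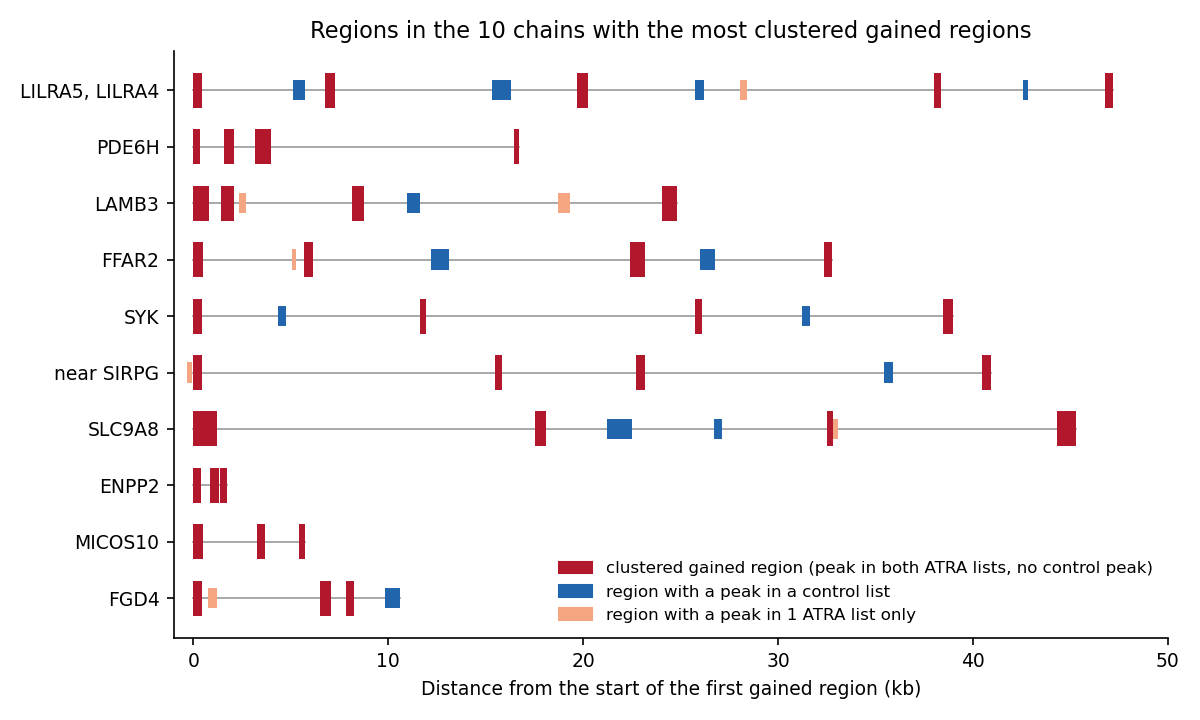
Position of regions (kb from the start of the first gained region, x axis) in the 10 chains with the most clustered regions, named by the genes they overlap or lie near (y axis). Red boxes are clustered gained regions, blue boxes regions with a control peak and orange boxes regions with a peak in 1 ATRA list only. The LILRA5 and LILRA4 chain is the longest, and the ENPP2 chain is the most compact.

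Consensus matches were then compared, since the sequence was not used to choose the regions. The motifs, however, were chosen with earlier results of these data known, so their p-values are not an independent test. Each motif was searched on both strands in the central 200 bp, and shares were compared by the two-sided Fisher's exact test with Benjamini-Hochberg adjustment over 20 tests. The searched letters were AGATAA or TGATAA for GATA, GAGGAAGT for PU.1, AACCACA for RUNX, TTGCNNAA for CEBP, TGACTCA or TGAGTCA for AP-1, CACGTG for the E-box and CCGGAAGT for ETS, besides the IRF, DR5 and CTCF consensus. The PU.1 and ETS letters both read GGAAGT, and the rest are distinct. Regions are not replicates of the treatment, and regions of 1 chain share a neighbourhood.

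Against the 16710 distal regions of all 4 lists, 7 of 10 motifs differed in share. CEBP letters were in 184 clustered regions (17.0%) and 12.7% of all-list regions (odds ratio 1.41, 95% interval 1.20 to 1.67, exact adjusted p = 0.000418). RUNX letters were in 13.1% against 8.96% (odds ratio 1.54, 1.28 to 1.85, Fisher's exact adjusted p = 6.92e-05) and PU.1 letters in 11.9% against 8.37% (1.49, 1.23 to 1.80, adjusted p = 0.000418). The letters of CEBP, RUNX and PU.1 were thus more frequent in clustered than in all-list regions. Lost distal regions held RUNX letters in 15.2%, CEBP letters in 15.4% and PU.1 letters in 8.63%. Higher shares of RUNX and CEBP letters were therefore not particular to gained regions.

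The IRF consensus was in 5.00% of clustered regions against 2.89% (odds ratio 1.78, 1.34 to 2.37, Fisher's exact adjusted p = 0.000873). The DR5 consensus was in 6 of 1080 against 10 of 16710 (odds ratio 9.62, 3.61 to 25.6, Fisher's exact adjusted p = 0.000777), which rests on few matches. It was 4.67 without control replicate 2 and 6.40 without ATRA replicate 1. Fewer clustered regions held the letters of GATA, at 13.5% against 18.7% (odds ratio 0.679, 0.568 to 0.812, Fisher's exact adjusted p = 6.92e-05), or of CTCF, at 3.15% against 8.74% (0.344, 0.244 to 0.485, adjusted p = 1.71e-11). AP-1 (7.59% against 6.20%), E-box and ETS did not pass (Fisher's exact adjusted p = 0.156, 0.803 and 0.523). With the whole region searched in place of its centre, RUNX, IRF, CEBP and PU.1 did not pass (odds ratios 1.04, 0.946, 0.928 and 1.19), and the median width searched was then 565 bp in the all-list and 439 bp in the clustered regions. With equal numbers of peaks per list GATA (0.792, Fisher's exact adjusted p = 0.164) and IRF (1.55, adjusted p = 0.164) missed the threshold. So did RUNX without ATRA replicate 1 (1.10, Fisher's exact adjusted p = 0.0759) and IRF without control replicate 1 (1.35, adjusted p = 0.0519).

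Between clustered and isolated gained regions, no motif passed the adjusted threshold. Of the 10, 1 had an unadjusted p under 0.05, PU.1, in 11.9% of clustered and 14.4% of isolated regions (odds ratio 0.809, 0.663 to 0.987, p = 0.0343 and adjusted p = 0.0858 by Fisher's exact test). The interval for CEBP ran from 0.918 to 1.30, for RUNX from 0.883 to 1.30 and for GATA from 0.714 to 1.04, while that for DR5 (0.650 to 3.81) left a wide range. With 1 region per chain, GATA letters were fewer in clustered regions (odds ratio 0.718, Fisher's exact adjusted p = 0.0475), and without ATRA replicate 1 DR5 letters were more frequent in them (2.99, adjusted p = 0.000983). At least 1 of PU.1, RUNX, CEBP, AP-1 and IRF was found in 498 clustered regions (46.1%), compared with 45.2% of isolated regions and 35.9% of all distal regions, and 461 (42.7%) held none of the 10.

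**Figure D4:**
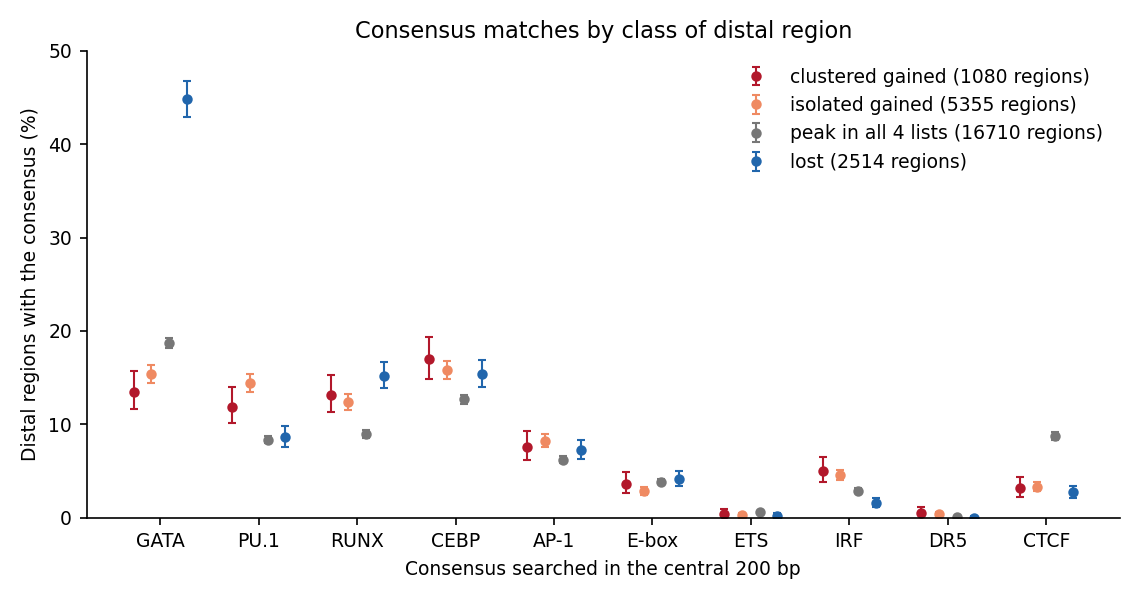
Share of distal regions (percent, y axis) with each consensus in the central 200 bp (x axis) for clustered gained, isolated gained, all-list and lost regions. Points are shares and bars 95% Wilson intervals, which cover counting error only. Clustered and isolated regions lie farthest apart at PU.1, at 11.9% and 14.4%, and GATA reaches 44.8% in lost regions.

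For scale, all 67386 distal regions held GATA letters in 20.9%, CEBP in 13.4%, PU.1 in 9.88%, RUNX in 9.43%, CTCF in 6.60%, AP-1 in 6.24%, IRF in 3.63%, the E-box in 3.22% and ETS in 0.405%. Lost distal regions held GATA letters in 44.8% and DR5 in 0 of 2514, which allows a share of up to 0.119% by the limit of 3 counts and 0.153% by the Wilson interval in the plot of shares. Seen by chain, a CEBP match was present in 163 of 506 chains (32.2%), RUNX in 130, GATA in 129 and PU.1 in 119. The same motif in 2 or more regions of a chain was present in 21 chains for CEBP, 17 for GATA, 12 for RUNX and 10 for PU.1.

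Genes were next linked to a clustered region within 50 kb of any of their TSS. This held for 782 of 19821 protein-coding genes (3.95%), and 674 genes (3.40%) had 2 or more. Of 275 genes in 12 lists of neutrophil, retinoid and comparison functions, 44 (16.0%) had a clustered region, in 41 chains. Any gained distal region was within reach of 146 of them (53.1%) and of 29.7% of all genes. Among genes with any gained distal region, a clustered one was present for 30.1% of the listed genes and 13.3% of all genes. The lists were chosen with results of these data known, so the counts carry no test.

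Of 6 subunits of the oxidase that makes superoxide, 2 had clustered regions. CYBB, the catalytic subunit, had regions 16538 bp upstream of its TSS and 1958 and 22155 bp downstream, with scores of 172, 147 and 74.5 in ATRA replicate 1 and 168, 194 and 99.4 in ATRA replicate 2. The first 2 of these regions passed the middle of both lists, and the last was below it in both.

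Of 14 chemoattractant and lipid mediator receptors, 4 had clustered regions, but FPR1, FPR2 and FPR3 shared 1 chain. FPR1 and FPR2 detect formyl peptides of bacteria. The 3 regions of the chain lay 1794, 3160 and 9690 bp downstream of the nearest of several TSS of FPR2, not the same one for all, and scored 153, 251 and 75.5 in ATRA replicate 1 and 129, 190 and 116 in ATRA replicate 2. C5AR2, a receptor for the complement fragment C5a, had 2 regions 33200 and 44981 bp downstream.

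Adhesion molecules had 5 of 14. CEACAM1 and CEACAM8, immunoglobulin-like adhesion molecules of granulocytes, shared a chain of 3, whose strongest region lay in an intron 5384 bp past the CEACAM1 TSS and scored 161 and 212. CEACAM3, a phagocytic receptor, had 2 weak regions, the nearer 1328 bp upstream of its TSS at 56.4 and 88.2. ICAM1 and the integrin subunit ITGAL had 2 each, those of ICAM1 at 34803 and 48379 bp upstream.

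Fc and paired immune receptors had 6 of 23. LILRB2, an inhibitory receptor for class I molecules, was within reach of 3 regions of the LILRA5 and LILRA4 chain. FCGR3A, a receptor for the Fc part of IgG, had 2 regions 10512 and 25908 bp upstream, and the nearer scored 81.1 and 50.0, the latter close to the lowest score of its list. FCGR3A lies in a duplicated segment of the genome, where reads of the copies may not be told apart. CD300A had 2 regions, the stronger at 169 and 224, 11874 bp past its TSS, and the SIGLEC5 pair both held an IRF match and scored 84.2 and 74.0 in ATRA replicate 1 and 133 and 105 in ATRA replicate 2. TYROBP, the adaptor of many activating receptors, had 2 as well.

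The list of granule proteins had 5 of 20, in 3 chains. Of these, S100A8, S100A9 and S100A12 are calcium-binding proteins of the neutrophil cytosol rather than of granules, and they shared 2 regions, 811 and 4346 bp downstream of the S100A8 TSS, which scored 58.6 and 121 in ATRA replicate 1 and 63.3 and 110 in ATRA replicate 2. MMP9, a gelatinase, had a region 3500 bp upstream of its TSS with a PU.1 match and scores of 183 and 148, and MMP8, the neutrophil collagenase, a region 3052 bp upstream with 67.7 and 152. None of the 5 kept a clustered region with equal numbers of peaks per list.

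Of 26 pattern recognition and cytokine receptors, 4 had clustered regions. IL10RA, a receptor chain for the inhibitory cytokine IL-10, had 4 in 2 chains, 15524 and 12801 bp upstream and 16410 and 29913 bp downstream, with scores of 117, 63.0, 143 and 106 in ATRA replicate 1 and 178, 107, 240 and 54.8 in ATRA replicate 2. NLRP3, the inflammasome sensor, IFNGR2 and TNFRSF1A had 2 each.

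Intracellular signalling and migration had 9 of 30 genes, in 10 chains. Besides SYK and ARHGDIB, ELMO1, which activates Rac in phagocytosis, had 4 regions in 2 chains. The strongest of them, at 122 and 230, had its centre 197 bp past a TSS and covered that TSS. MYO1F, a myosin of leukocytes, had 3, of which the one 6298 bp past its TSS scored 100 and 133. The adaptor LCP2, the phosphatase INPP5D and the kinase subunit PIK3R5 had 2 each, and the Rac exchange factor PREX1 had 1.

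The retinoid list had 5 of 25 genes, in 6 chains. ALDH1A2 had 3, among them the region at 256 and 354, and DHRS3 and HIC1 had the chains with DR5 matches described above. ASB2, a ubiquitin ligase subunit known to be induced by ATRA in leukemia cells, had a region 2352 bp upstream of a TSS at 238 and 188, and a second at 102 and 187.

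The remaining lists were read against the same background of 3.95%. Of 45 myeloid transcription factors, 2 (4.44%) had clustered regions, CEBPA (28395 and 42861 bp downstream) and JUNB (25202 and 30749 bp upstream). In ATRA replicate 1 their percentiles were low, at 6.96 and 9.83 for CEBPA and 30.3 and 5.35 for JUNB. In ATRA replicate 2 they were 64.9 and 48.7 for CEBPA and 78.4 and 70.1 for JUNB. A lost distal region was within reach of 16 of these 45 (35.6%), compared with 11.7% of all genes. Other lists also had lost regions in reach, among them adhesion molecules (35.7%), survival and cell cycle (28.6%), signalling (26.7%), pattern recognition and cytokine receptors (23.1%) and chemoattractant receptors (21.4%). None of 25 interferon-stimulated genes had a clustered region, while survival and cell cycle genes had 1 of 21 (BCL2A1, an inhibitor of apoptosis) and cytosolic ribosomal proteins, listed for comparison, 1 of 26 (RPL18).

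**Figure D5:**
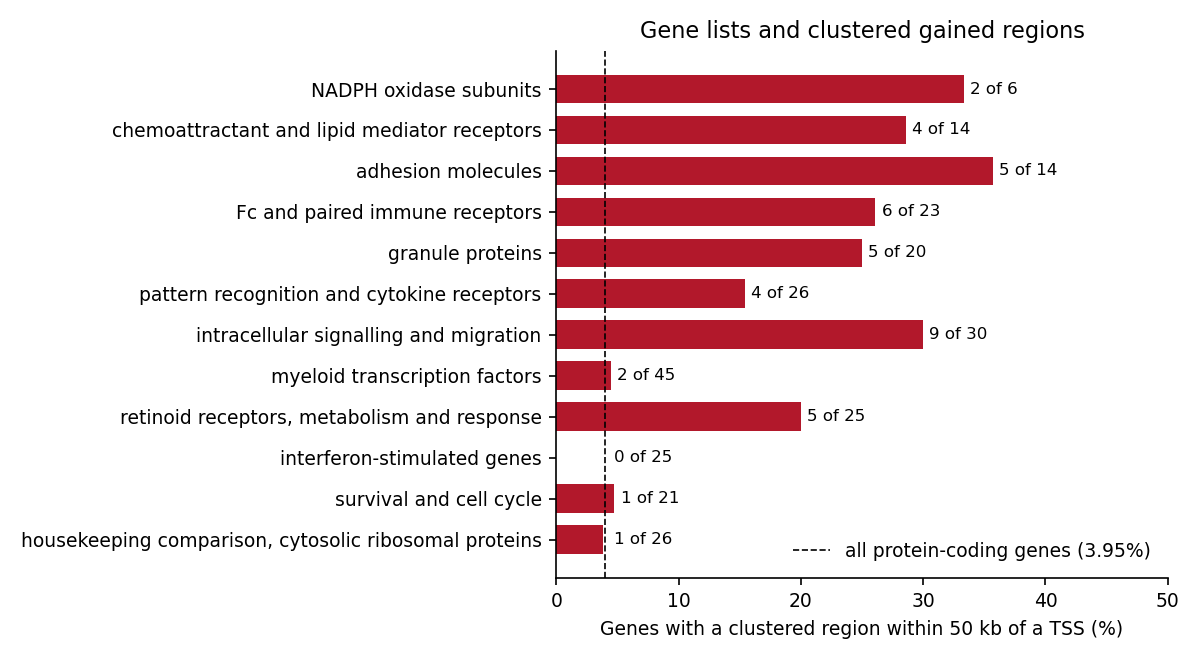
Share of the genes of each list with a clustered region within 50 kb of a TSS (percent, x axis), with the number of genes beside each bar. The dashed line is the share over all protein-coding genes, 3.95%. The lists of adhesion molecules, oxidase subunits and signalling reach the highest shares, although genes that lie side by side can share a chain.

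Outside the lists, AP3D1, CD300E, CD320, HSD11B1, IER5, MAPKAPK2, PACSIN2 and RAB31 were among the genes that also had 4 clustered regions each within 50 kb, the highest count after the 5 at LILRA4 and LILRA5. Of the lists' 44 genes, 15 were on chromosome 19, so that without it 29 had a clustered region, against 3.16% of all genes. Without ATRA replicate 1 the rule gave 116 listed genes and 19.7% of all genes, and without control replicate 2 it gave 71 and 7.66%.

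Promoters of the genes nearest to clustered regions were also examined, a description added after the values were seen. Of these 548 genes, 25 (4.56%) had a gained promoter region, compared with 2.31% of the 3849 genes nearest to isolated gained regions alone and 2.12% of all genes. Gained regions were kept out of promoters by their centre alone. A clustered region that reaches into a promoter, or covers a start site as at SLC9A8, may therefore itself be counted there. How many were was not tested. Clustered regions also lay within 10 kb of a TSS more often than isolated ones (32.4% against 24.3%). A lost promoter region was present for 5 (0.912%), 33 (0.857%) and 0.691% respectively. A promoter peak was called for 50.5% and 54.0% of the 548 genes in the ATRA replicates and for 47.3% and 42.3% in the control replicates. Both ATRA values were above both control values, also over all genes (49.3% and 49.8% against 47.4% and 44.1%). Accessibility alone was measured, and no level of transcription belongs to these values.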

How the data were processed

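Peak lists from ATAC-seq of HL-60 cells were analysed, 2 libraries of ATRA-treated and 2 of control cells, and sample titles gave the groups and replicate numbers. As described per the labels and methods, the authors lysed cells, treated nuclei with Tn5, amplified by PCR, trimmed adapters with cutadapt, aligned reads to hg19 (GRCh37) with Bowtie and called peaks with MACS2 for each library on its own. A shift to the Tn5 cut site, removal of duplicates and a filter on problem regions were not given in the sources used here, so peak edges may be off by some bases and repeats may hold peaks. Each deposited list gives a position, a name and a score from 50.0 to 3100 whose scale is not stated. The deposited score was used only as a percentile within its list, and a region took the highest percentile among its peaks. The lists hold no counts, so depth and its precision are unknown, and a deeper library can yield more and wider peaks.

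Peaks sharing at least 1 bp were merged. Genes were those of GENCODE release 44 on GRCh37, with 78569 TSS of protein-coding transcripts. Chains, motif shares (200 bp about the centre) and genes within 50 kb were computed with Python 3.11.15, numpy 2.4.6, scipy 1.17.1, pysam 0.24.0 and samtools 1.23.1, and figures with matplotlib 3.10.9. Odds ratios were computed after adding 0.5 per cell, with 95% Woolf intervals, and shares in the plot have 95% Wilson intervals, which cover counting error only. The steps were tested on simulated data. Regions, gene lists and motifs were chosen with earlier results of these data known. Named loci were the 10 chains with the most regions, ties going to the shorter span, and up to 4 genes of each list with the most clustered regions. Sequences shown were those of DR5 matches and of the strongest region of the 5 largest chains, none from chromosome 8. Some genes and 1 sequence that these rules select are not reported here. Alternatives were other gaps, merging, peak widths, scores, equal list lengths, promoter definitions, windows and gene distances, and each library left out.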

Additional observations from a re-analysis of the deposited data

How the results depend on the processing

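The number of clustered regions followed the limits set and the lengths of the lists. Against 1080 clustered regions in 506 chains, with 5 in the largest and 16.8% of gained distal regions in chains, gaps of at most 10 kb gave 588 in 286 chains (largest 3, 9.14%) and gaps of at most 40 kb gave 1798 in 800 chains (largest 8, 27.9%). Peaks above the middle of each list by score, control lists included, gave 3180 gained distal regions, 311 of them in 149 chains (9.78%). An equal number of peaks per list gave 534 in 252 chains (12.3%). The share was 15.7% with promoters of genes of every biotype, 15.6% with promoters of 2 kb on either side, 15.3% with no control peak within 1 kb and 12% where a control peak broke a chain. Leaving out 1 library loosens the rule, and gave 8802 to 20839 gained distal regions, 1864 to 7183 clustered regions, 849 to 3106 chains, a largest chain of 6 to 10 and a share of 21.2% to 34.5%. The highest values were without ATRA replicate 1, which leaves the long list of ATRA replicate 2 alone.

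The share in chains was 7.04 percentage points higher for gained than for lost regions. The difference was 3.21 at 10 kb, 12.7 at 40 kb, 2.97 with peaks above the middle of each list, 1.11 with an equal number of peaks per list, 5.47 with broken chains, 3.57 to 24.2 without 1 library, and -0.875 with equal numbers of gained and lost regions.

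Against isolated regions 0 motifs passed, and 1 did with 1 region per chain (GATA). Without 1 library the number was 0 to 2, the highest without ATRA replicate 1 (PU.1 and DR5) and without ATRA replicate 2 (GATA and PU.1), and 1 without control replicate 2 (CTCF). Against all-list regions 7 passed, 4 or more under each window and gap tried, 1 with the reversed consensus used as a control (the E-box), and 6 to 8 without 1 library (RUNX lost without ATRA replicate 1, IRF without control replicate 1). With the whole region the 4 were GATA, CTCF, DR5 and the E-box (odds ratio 0.572, Fisher's exact adjusted p = 1.44e-05). The E-box was not among the 7. Reversal turned the odds ratios of GATA (1.02), RUNX (0.781), CEBP (0.972) and CTCF (15.5, with no match in either class, so that the value comes from the added 0.5 alone), and the whole region turned those of CEBP (0.928) and IRF (0.946).

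Of the listed genes, 44 had a clustered region, 29 with an equal number of peaks per list, 29 without chromosome 19 (an alternative added after seeing the data) and 66 to 116 without 1 library, when 6.82% to 19.7% of all genes had one. No paired analysis was possible because clustered regions have no control peak and so no control score to set against the ATRA score of the same number, and a gain within each pair is, by definition, the rule itself (6976 regions). Repeats and mappability were not assessed.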
